A study of Mus musculus with 6 samples.

Results

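Ifng encodes interferon gamma (IFN-γ), and it was followed here across every array of a microarray study of mouse CD4+ T cells. It was found by its gene symbol: of the 45141 probe sets in the deposited table, 1 was annotated to Ifng alone, and Ifng was 1 of the 17097 genes measured. Every Ifng value below therefore comes from that probe set. IFN-γ is the signature cytokine of T helper 1 cells. It binds a receptor made of Ifngr1 and Ifngr2, which signals through the kinases Jak1 and Jak2 and switches on guanylate-binding proteins, immunity-related GTPases and antigen-presentation genes. In CD4+ T cells its transcription follows antigen-receptor and costimulatory signals, is promoted by Tbx21 (T-bet), Eomes and Stat4 and by interleukin 12 and 18, and is held down by TGF-beta.

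The study asked what BTNL2, a butyrophilin family protein related to the B7 ligands, does to T cells that also receive B7-2 (CD86), the ligand of Cd28 and Ctla4. CD4+ T cells depleted of CD25+ cells came from female C57BL/6 mice; their origin is given as spleen in some descriptions and as spleen with lymph nodes in others. The negative control wells were coated with anti-CD3 antibody (clone 2C11, 2 µg/ml) and human IgG, the B7-2 wells with anti-CD3, B7-2.Fc (3 µg/ml) and IgG, and the BTNL2 wells with anti-CD3, B7-2.Fc and BTNL2.Fc (11 µg/ml), the .Fc proteins being fusions to an antibody tail. All wells, controls included, also held human TGF-beta (0.36 ng/ml) and mouse interleukin 2 (10 ng/ml), with the same number of cells per well for 4 days, and 50 ng of RNA was amplified for each array. Each group had 2 arrays. The labels do not say whether the 2 cultures of a group came from different animals, so the p-values measure only the spread between these cultures, which may be technical.

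Values are linear intensities per probe set after RMA, which subtracts background, gives all arrays the same distribution and combines the probes that share a set. The array medians lay between 18.45 and 18.77. Duplicates correlated at 0.997 to 0.9976 over 17097 genes and arrays of different groups at 0.9741 to 0.9871, and no array stood apart from its duplicate. The 8 measured markers listed for CD4+ T cells were Cd4 and the general T cell genes Cd3d, Cd3e, Cd3g, Cd5, Cd28, Lat and Trat1. Their summed intensity was 18270 to 18860 in the anti-CD3 wells, 14450 to 14770 in the B7-2 wells and 14950 to 14990 in the BTNL2 wells. Cd4 itself read 1103 to 1705 on the 6 arrays. With each probe set tested, Cd4 was lower in the BTNL2 wells than in the anti-CD3 wells (log2 -0.53, adjusted p = 0.00847, limma). A dimmer Cd4 probe set had -0.38 there (adjusted p = 0.076). In that comparison 2 of the 8 were higher and 4 lower, beside 14.2% and 16.2% of all genes.

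Promoter sequences are given for the genes on which the results below turn: Ifng, the gene with the most similar profile (Csf2) and an IFN-γ response gene with a large difference (Gbp2). Each is the 250 bases before the transcription start, from RefSeq on the mouse build GRCm38.p6, read 5′ to 3′ on the gene's own strand; the array file names no build. Ifng lies on the plus strand and its window is chr10:118440796-118441045, that of Csf2 is chr11:54249900-54250149 on the minus strand, and that of Gbp2 is chr3:142620413-142620662 on the plus strand. Capitals mark matches, on either strand, to the letters TTCNNNGAA (the GAS element, the gamma-activated sequence), GGAAA (core of NFAT sites, marked in Ifng and Csf2 only), TACGTA (core of an ATF/CREB palindrome), TATAAA (the TATA box, marked in Ifng only), TGANTCA (AP-1) and to the core of the interferon-stimulated response element (ISRE: GAAA, then any 2 bases, then GAAA).
Ifng: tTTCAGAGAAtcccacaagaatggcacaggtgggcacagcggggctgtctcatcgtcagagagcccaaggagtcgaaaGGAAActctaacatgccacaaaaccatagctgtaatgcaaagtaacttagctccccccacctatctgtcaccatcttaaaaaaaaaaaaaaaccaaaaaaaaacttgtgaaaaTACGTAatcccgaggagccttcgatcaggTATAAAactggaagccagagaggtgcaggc
Csf2: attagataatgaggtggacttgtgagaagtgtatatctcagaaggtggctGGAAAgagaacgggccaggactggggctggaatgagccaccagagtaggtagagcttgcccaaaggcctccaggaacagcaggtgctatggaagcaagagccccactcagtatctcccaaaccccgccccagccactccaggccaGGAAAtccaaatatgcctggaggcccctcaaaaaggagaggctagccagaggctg
Gbp2: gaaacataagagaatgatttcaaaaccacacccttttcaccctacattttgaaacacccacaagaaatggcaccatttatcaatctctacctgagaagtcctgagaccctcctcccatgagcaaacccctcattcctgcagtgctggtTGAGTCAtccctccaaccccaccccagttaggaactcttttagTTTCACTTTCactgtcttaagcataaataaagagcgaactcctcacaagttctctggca
In the Ifng window TATAAA stood 30 to 25 bases before the start, TACGTA 59 to 54 bases, GGAAA 172 to 168 bases and the GAS letters 249 to 241 bases before it. Among 32851 windows of this length, TATAAA was present in 12.4%, TACGTA in 0.837%, GGAAA in 55.6%, TTCNNNGAA in 7.02%, TGANTCA in 6.75% and the ISRE core in 2.98%. The T-box letters GGTGTGA, present in 3.33% of windows, were not in this stretch of Ifng. These matches describe letters only and are no measure of binding.

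Ifng had its lowest signal with anti-CD3 alone, rose with B7-2 and rose again when BTNL2 was added to B7-2. The anti-CD3 wells read 241.55 and 285.79, the B7-2 wells 1294.78 and 1215.64, and the BTNL2 wells 2899.61 and 2529.59. Every array of a group lay above every array of the group before it, so the order of the 3 levels had no overlap. The means were 264 ± 31.3, 1255.2 ± 56.0 and 2714.6 ± 261.6 (SD, n = 2 each). The higher duplicate exceeded the lower by 1.18 times in the anti-CD3 wells, 1.06 times in the B7-2 wells and 1.15 times in the BTNL2 wells. The Ifng signal was far above that of nonspecific hybridisation: it was 64.9 and 77.7 times the median of 23 negative control probe sets in the anti-CD3 wells, and 642 and 786 times in the BTNL2 wells.

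**Figure D1:**
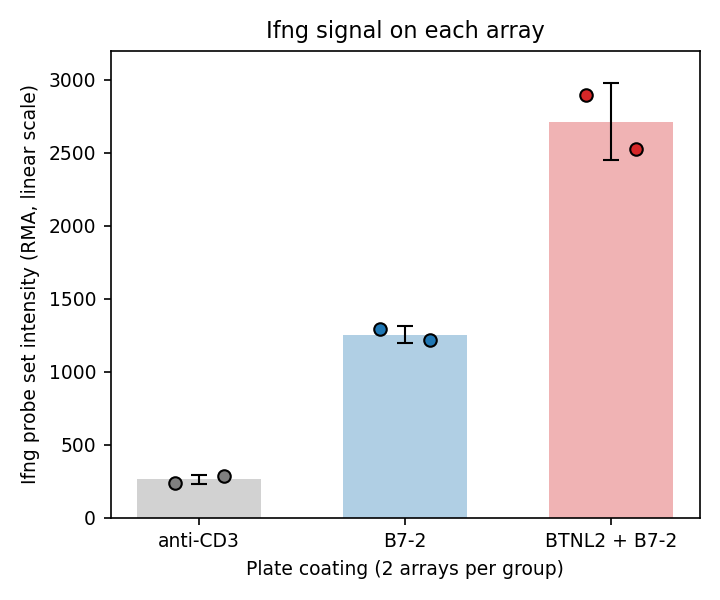
Ifng probe set intensity (linear scale after RMA) on each of the 6 arrays by plate coating, with bars for the group mean and error bars of 1 SD (n = 2). The means climb from 264 with anti-CD3 to 1255.2 with B7-2 and 2714.6 with BTNL2 and B7-2, and no points of different groups overlap.

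Adding B7-2 to anti-CD3 was the larger step on a fold scale. Ifng rose 4.78-fold, a log2 change of 2.26 ± 0.12 (SE, 95% interval 1.97 to 2.54) with an adjusted p of 0.000166 in limma's moderated test, adjusted by Benjamini-Hochberg over 17097 genes. Single B7-2 arrays exceeded single anti-CD3 arrays by 4.25 to 5.36 times. In this comparison 11.2% of all genes rose and 13.3% fell (24.5% in all) at an adjusted p of 0.05, and only 15 genes (0.0877%) had a larger rise than Ifng. Among these 15 were the cytokine genes Il9, Il5, Il10 and Csf2 and the chemokine gene Ccl3.

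Adding BTNL2 to B7-2 gave a further rise of 2.16-fold, a log2 change of 1.11 ± 0.12 (95% interval 0.83 to 1.39, adjusted p = 0.000837, limma). The pairwise ratios of single arrays ran from 1.95 to 2.38, all above the largest ratio between duplicates. Here 9.52% of all genes rose and 10.8% fell (20.4% in all), and 363 genes (2.12%) had a larger rise than Ifng, so its rank was lower than in the first step. From anti-CD3 to BTNL2 with B7-2 the whole rise was 10.3-fold (log2 3.37 ± 0.12, adjusted p = 8.71e-06), and 26 genes (0.152%) rose by more. In that comparison 14.2% of all genes rose and 16.2% fell (30.4% in all). An exact permutation test of 2 arrays against 2 cannot give a two-sided p under 0.333, so these tests rest on limma's pooling of variance across genes. A bulk RNA sample cannot tell more Ifng-producing cells apart from more Ifng RNA per cell.

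The second step was smaller than the first on the log2 scale, by -1.15 ± 0.21 (95% interval -1.63 to -0.66, adjusted p = 0.00982, limma). Both steps share the B7-2 arrays, and without the first B7-2 array the same difference was -1.05 with an adjusted p of 0.0721. On the linear scale the order of the steps turned: the mean gained 991.5 intensity units with B7-2 and 1459 units with BTNL2.

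The genes whose profile across the 6 arrays was nearest to that of Ifng were chosen by the root mean square of the log2 differences from it, after each gene was centred on its own mean. That distance was 0.0554 for Csf2, which encodes the cytokine GM-CSF, and the median over all genes was 1.41. Csf2 read 25.76 and 31.88 in the anti-CD3 wells, 135.85 and 143.41 in the B7-2 wells, and 311.26 and 275.7 in the BTNL2 wells. It thus had the same order of groups as Ifng without overlap, with rises of 4.87-fold and then 2.1-fold. Next was Ifitm3 (0.143), an interferon-inducible antiviral membrane protein, with 222.03 and 234.32, then 1072.31 and 997.54, then 3141.21 and 2172.49. Tnfsf11 (0.249), which encodes the cytokine RANKL, rose 4.3-fold and then 3.0-fold on its brighter probe set, while a second, dim probe set of mean 7.04 had log2 differences of -0.32 and 0.68. The growth factor gene Il3 (0.380), the isomerase gene Idi2 (0.425), Ikzf2, which encodes the transcription factor Helios (0.464), Lta, which encodes lymphotoxin alpha (0.464), and the death ligand gene Fasl (0.468) followed. Il3 and Idi2 were dim with anti-CD3, at 5.68 and 6.89 and at 4.96 and 5.46, near the nonspecific signal. A second, dim Ikzf2 probe set of mean 8.34 had log2 differences of 0.43 and 0.13 that did not pass. The 8 genes were picked for their likeness, so their values are a description. With 3 groups of 2 arrays a step-like profile is common, and 572 other genes correlated with Ifng above 0.95.

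Cytokine and chemokine genes of T cells were compared as a list of 31 others, of which 27 were measured. With B7-2, 17 of the 27 rose and 3 fell, beside 11.2% and 13.3% of all genes. The median log2 change was 1.06 against -0.0048 over all genes. The 3 that fell, Csf1, Ltb and Xcl1, became 5 without either BTNL2 array. Xcl1, which is dim in both groups, was not called without either anti-CD3 array or the second B7-2 array. When BTNL2 was added, 14 of the 27 rose and 10 fell, beside 9.52% and 10.8% of all genes. The median was 0.33 against -0.0114 over all genes. Of the 27, Csf2, Il3, Il9 and Ccl3 were among those that rose in both steps, as Ifng did.

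The T helper 2 cytokine genes and Il10 had another course. Il5, an eosinophil growth factor gene, read 28.95 and 33.73 with anti-CD3, 472.11 and 456.27 with B7-2, and 21.92 and 37.3 with BTNL2, so its rise with B7-2 was gone in the BTNL2 wells, which overlapped the anti-CD3 wells. Il13, which drives mucus and barrier responses, rose 4.72-fold with B7-2 and was 2.65-fold lower again with BTNL2. Il10, an anti-inflammatory cytokine gene, rose 7.35-fold and then fell by 1.37 on the log2 scale, and Il4 rose 2.08-fold and then fell by 0.90. Il21, a cytokine gene of follicular helper T cells, had 2 probe sets that differed in size. The brighter did not pass with B7-2 (log2 -0.53, adjusted p = 0.236; 0.0351 without either BTNL2 array) and fell by 4.24 with BTNL2, whereas the other fell by 0.65 (adjusted p = 0.00656 with each probe set tested) and then by 2.49. Il9, a mast cell growth factor gene, did rise in both steps, from 20.39 and 19.29 to 318.73 and 307.38 and then to 2542.4 and 1557.48.

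Of the cytokines often made together with IFN-γ, Tnf, which encodes tumour necrosis factor, read 26.57 and 26.65, then 55.16 and 53.02, then 69.21 and 65.13. Its 2.03-fold rise with B7-2 passed the test, while its second step of 0.31 had an adjusted p of 0.0444 and missed the threshold in 10 of the alternatives tried. Lta rose 4.04-fold with B7-2 and had a second difference of 0.33 ± 0.16 that did not pass (adjusted p = 0.2). Il2 was dim on all arrays, between 10.99 and 24.43, and passed in neither step. Xcl1, a chemokine gene of activated killer and T cells, read 10.4 and 11.4 with anti-CD3, 7.59 and 6.01 with B7-2, and 1782.16 and 1362.72 with BTNL2. Ccl1, another T cell chemokine gene, rose with BTNL2 from dim readings of 26.69 and 27.05 to 2886.4 and 2260.65, after a first difference of 0.17 that did not pass.

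**Figure D2:**
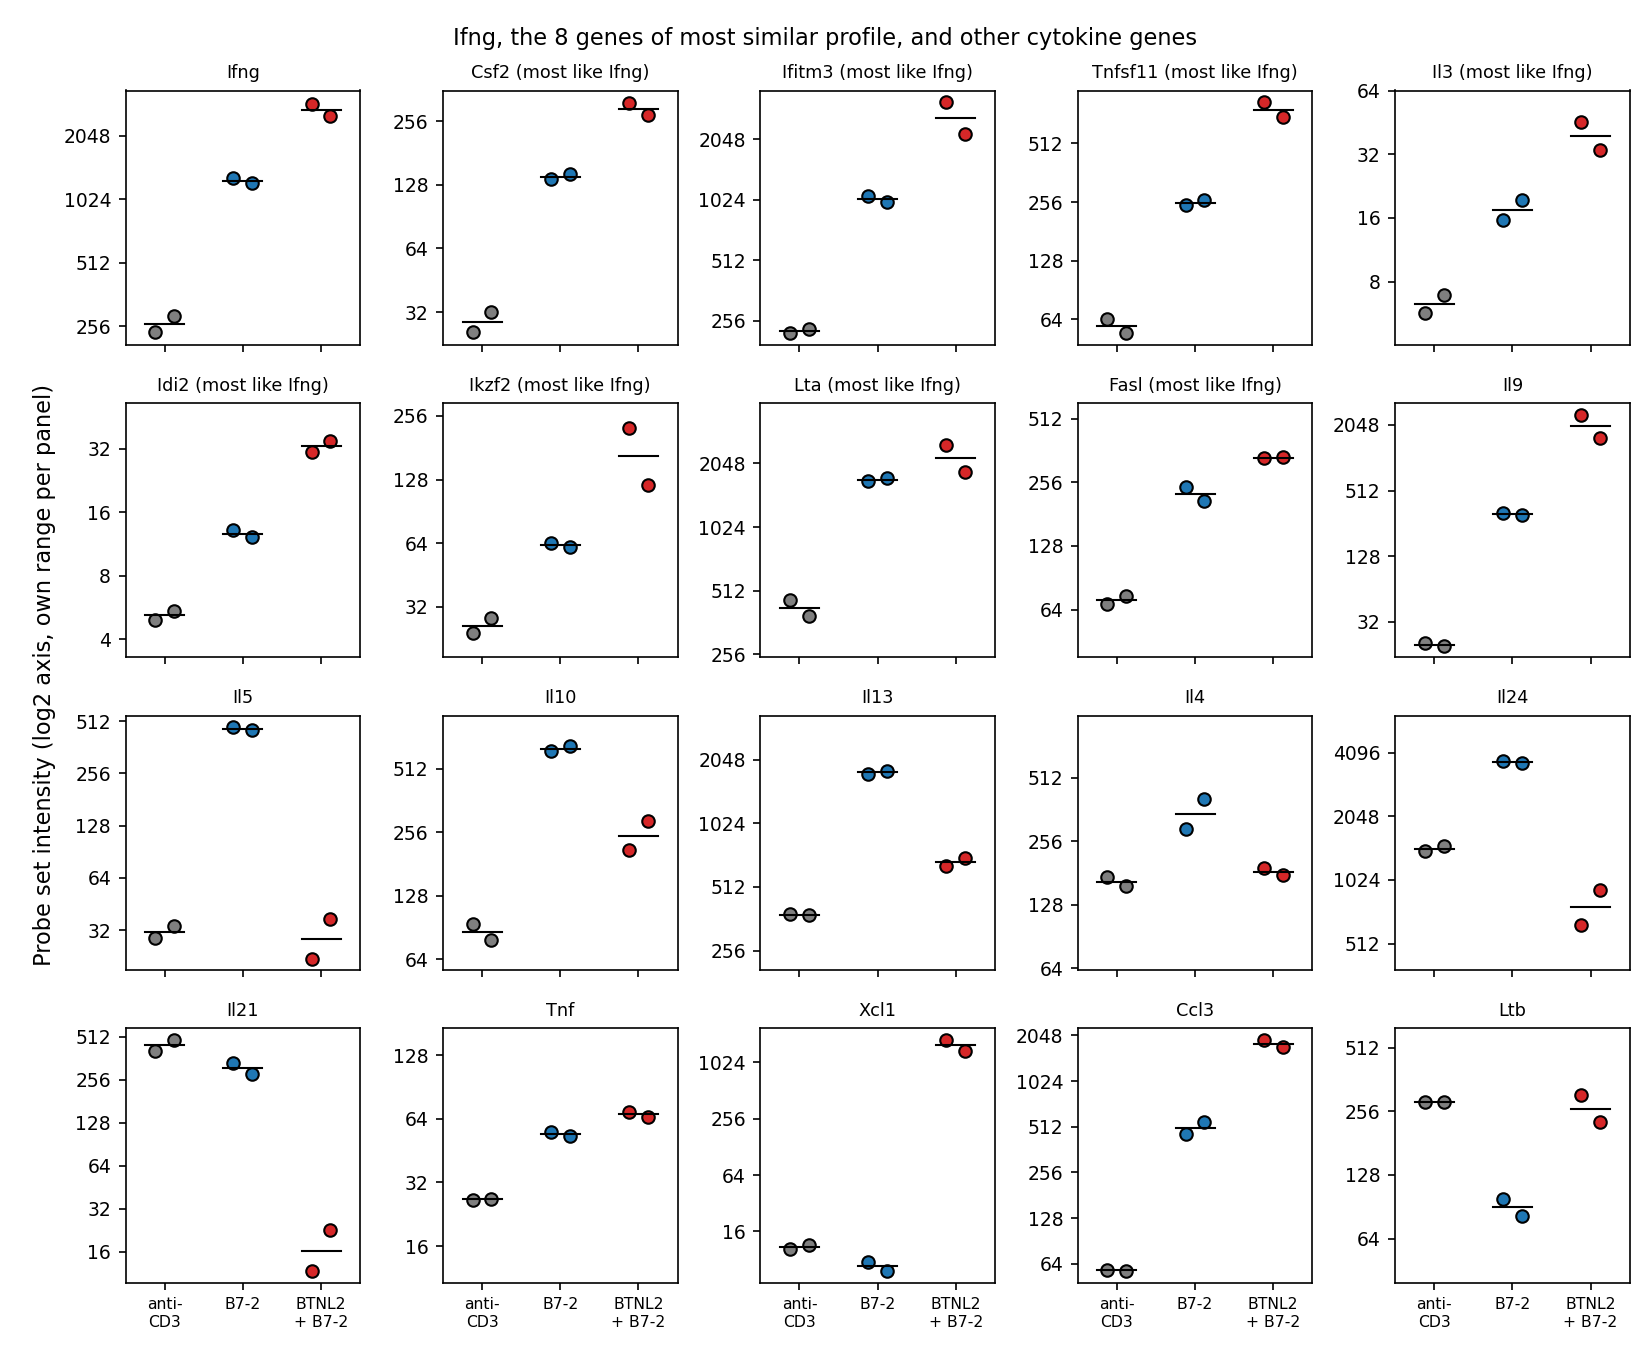
Intensity of Ifng and other cytokine and chemokine genes on each of the 6 arrays (log axis), 1 panel per gene, by plate coating. Ifng and Csf2 climb over both steps, whereas Il5 peaks with B7-2 and Xcl1 is high only in the BTNL2 wells among the 3 groups.

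The genes of the IFN-γ receptor and its signalling did not follow the Ifng level. Ifngr1, the ligand-binding chain, read 161.12 and 140.45 with anti-CD3, 88.08 and 90.21 with B7-2, and 181.49 and 192.45 with BTNL2. It fell 1.69-fold with B7-2 (log2 -0.76 ± 0.10, adjusted p = 0.00225) and rose 2.1-fold with BTNL2 (1.07 ± 0.10, adjusted p = 0.000459). Ifngr2, the signalling chain, had a difference of 0.14 with B7-2 (adjusted p = 0.426) and of 0.40 ± 0.11 with BTNL2 (adjusted p = 0.0393). The latter missed the threshold without any 1 of the B7-2 and BTNL2 arrays (adjusted p from 0.0818 to 0.165) and with its probe sets averaged (0.31, adjusted p = 0.0785). Jak1 fell by 0.77 and then rose by 0.74 on its brightest probe set, but with its 3 probe sets averaged the first difference was -0.28 and did not pass (adjusted p = 0.102). Of 10 measured genes in this list, 0 rose and 4 fell with B7-2, beside 11.2% and 13.3% of all genes. The shares of all genes that rose and fell with BTNL2 were 9.52% and 10.8%. With BTNL2, 5 rose and 3 fell; 3 rose without either B7-2 array or without the first BTNL2 array.

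Of 37 listed response genes of IFN-γ, 29 were measured. With B7-2, 14 fell and 1 rose (Wars, a tRNA synthetase gene), beside 13.3% and 11.2% of all genes, while Ifng rose. Another 14 did not pass, and the median log2 change was -0.25. With BTNL2, 17 rose and 1 fell (Gbp4), beside 9.52% and 10.8% of all genes. The other 11 did not pass, and the median was 0.61. The number that fell with B7-2 was 6 without the first and 9 without the second anti-CD3 array, and 7 or 8 without the first or the second B7-2 array; the number that rose with BTNL2 stayed at 15 or 16 whichever array was left out. Wars was not called without the first anti-CD3 array or without either B7-2 array, and Gbp4 was not called without any 1 of 5 arrays, the second BTNL2 array being the exception.

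Gbp2, a guanylate-binding protein gene, read 2874.52 and 2950.57 with anti-CD3, 504.73 and 537.66 with B7-2, and 1471.94 and 1443.75 with BTNL2. It thus fell 5.59-fold (log2 -2.48 ± 0.09, adjusted p = 6.99e-05) where Ifng rose 4.78-fold, then rose 2.8-fold (1.48 ± 0.09, adjusted p = 6.35e-05), and it ended 2.0-fold below the anti-CD3 wells. A second Gbp2 probe set gave -2.48 and 1.46. The immunity-related GTPase gene Iigp1 read 865.33 and 845.65, then 200.45 and 217.7, then 1203.6 and 963.09. Gbp3 and Gbp7 fell by 2.01 and 1.57 with B7-2 and rose by 1.74 and 2.42 with BTNL2. Ciita, the master regulator of MHC class II genes, fell by 0.49 and rose by 1.25, and Nlrc5, its counterpart for class I, fell by 0.47 and rose by 0.85. Cxcl10, a T cell attracting chemokine gene, was dim at 22.97 and 18.54, then 15.31 and 14.56, and rose 3.91-fold to 64.33 and 53.01 with BTNL2. Irf1, an interferon-induced transcription factor gene, had a first difference of -0.22 (adjusted p = 0.159) and then rose 1.53-fold (adjusted p = 0.00479). Cxcl9 and Nos2, known as strong IFN-γ targets in macrophages, stayed near the dim end of the scale and passed in neither step.

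Against anti-CD3 alone, the BTNL2 wells had 10.3-fold more Ifng signal. There 13 of the 29 response genes were higher and 2 lower (Gbp2 and Ido1, which encodes a tryptophan-degrading enzyme), with a median of 0.27. Of all genes, 14.2% were higher and 16.2% lower. The 13 became 7 without the first anti-CD3 array and 8 without the first BTNL2 array. Of the 25 response genes with a promoter window, 10 (40%) held the GAS letters and 11 (44%) the ISRE letters at 1 start or more, as a description of the list.

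**Figure D3:**
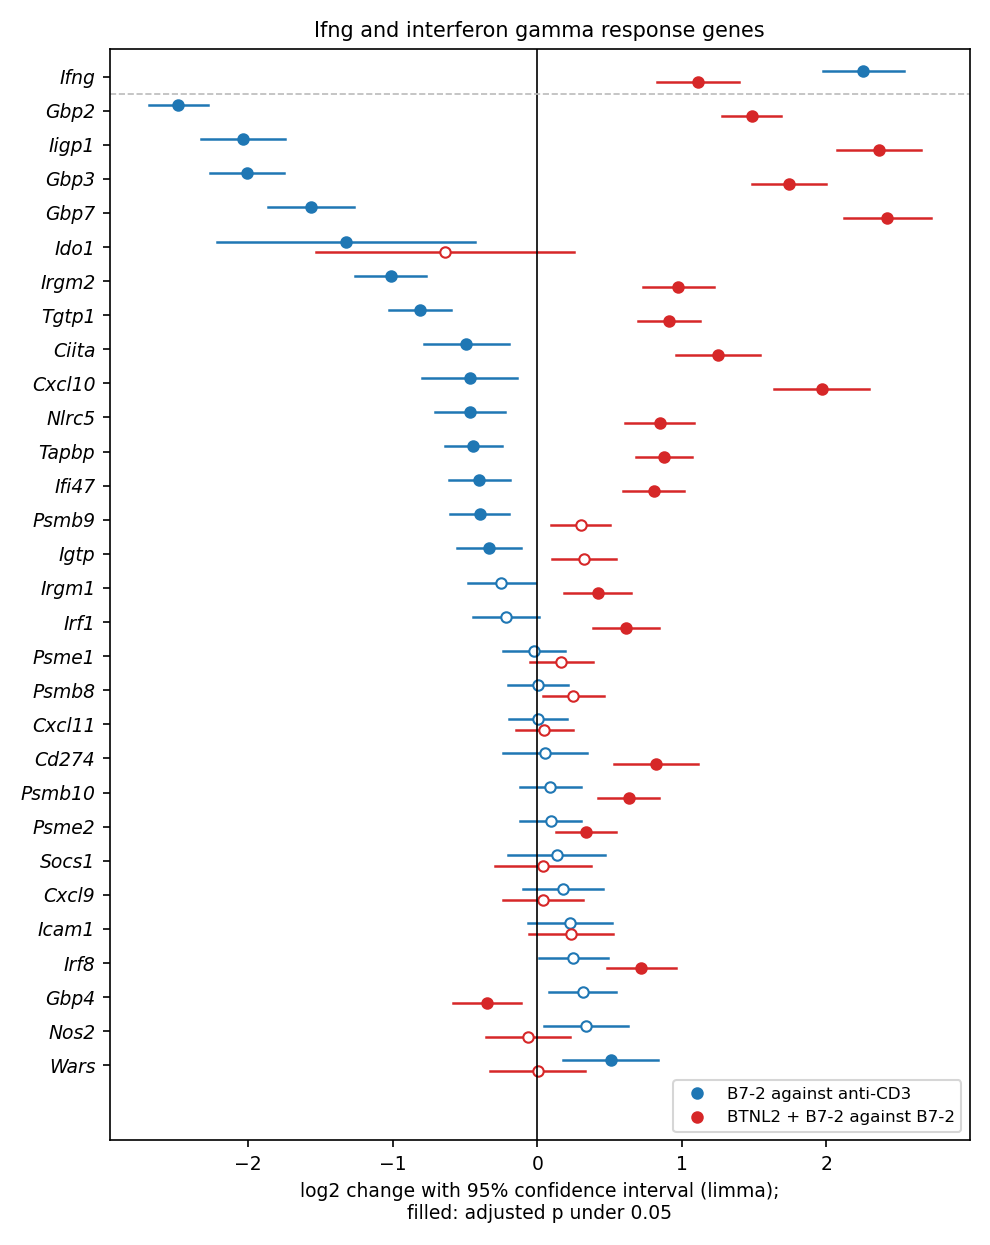
Log2 change with its 95% confidence interval for Ifng and the 29 measured IFN-γ response genes, for B7-2 against anti-CD3 (blue) and BTNL2 with B7-2 against B7-2 (red); filled points passed an adjusted p of 0.05. Ifng lies right of 0 in both comparisons, while 14 response genes fell in the first and 17 rose in the second.

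Genes that respond mainly to type I interferons, a family distinct from IFN-γ with overlapping targets, were listed separately. Of 19 measured, 0 rose, 9 fell and 10 did not pass with B7-2 (median -0.42). Of all genes 11.2% rose and 13.3% fell there. With BTNL2, 16 rose, 0 fell and 3 did not pass (median 2.25), while 9.52% of all genes rose and 10.8% fell. Ifit1, an RNA-binding antiviral gene, read 21.24 and 11.27, then 15.92 and 13.76, then 480.94 and 357.7, a rise of 4.81 ± 0.29 on the log2 scale with BTNL2 from dim readings. Irf7, a transcription factor gene of the type I response, fell by 0.74 and rose by 2.25. The part of type I interferon in the levels of the IFN-γ response genes was not tested.

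Of 23 measured transcription factors and other genes that promote Ifng, 4 rose and 3 fell with B7-2 (median -0.09), beside 11.2% and 13.3% of all genes, so these counts are near the background. The 4 became 1 without either anti-CD3 array and 2 without either B7-2 array. Tbx21, the T helper 1 master factor gene, read 551.88 and 702.19, then 567.83 and 512.45, then 388.93 and 492.88. Its groups overlapped in the first step, and neither step passed (log2 -0.21, adjusted p = 0.42, then -0.30, adjusted p = 0.248). Against anti-CD3 alone, where Ifng was 10.3-fold higher, Tbx21 was lower in the BTNL2 wells (-0.51, adjusted p = 0.0495), a call lost without the second anti-CD3 array, the first BTNL2 array or either B7-2 array (adjusted p from 0.0649 to 0.246). Among the 4 that rose with B7-2 were Gadd45b (2.47-fold), a stress gene whose product activates p38 kinase, and Bhlhe40 (log2 0.49, adjusted p = 0.0172), a factor needed for cytokine production by helper T cells; Bhlhe40 missed the threshold without either anti-CD3 array or without the second B7-2 array (adjusted p = 0.088, 0.0705 and 0.0932). Stat4, which carries the interleukin 12 signal, fell by 0.74.

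With BTNL2, 8 of these activators rose and 5 fell (median 0.10), beside 9.52% and 10.8% of all genes; 5 rose without the first B7-2 array or without the first BTNL2 array, and 3 fell without any 1 of the arrays other than the second BTNL2 array. The change of Eomes, a T-box factor related to Tbx21, was the largest in the list. It read 21.07 and 17.67 with anti-CD3, 19.98 and 16.3 with B7-2, and 1337.29 and 991.47 with BTNL2. The first 2 groups overlapped, and the rise with BTNL2 was 6.00 ± 0.18 on the log2 scale, with 5.76 on a second probe set; as with other genes that start from dim readings, its size depends on how RMA treats low signal. Stat4 rose 2.34-fold, from 756.74 and 741.92 to 1627.99 and 1890.94, above its level with anti-CD3 as well. Runx3, which works with T-bet on Ifng, rose by 0.65. Bhlhe40 fell by 1.17 and Hlx, a T-bet partner gene, by 1.29 in the wells where Ifng was highest.

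Of 17 measured repressors of Ifng, 4 rose and 4 fell with B7-2 (median -0.06), beside 11.2% and 13.3% of all genes. With BTNL2, 7 rose and 3 fell (median 0.22), beside 9.52% and 10.8% of all genes. Each 4 became 2 without either anti-CD3 array or without the second B7-2 array, and the count of those that fell also without the first B7-2 array. Gata3, the T helper 2 master factor gene, read 894.07 and 913.35, then 886.65 and 905.37, then 695.13 and 789.32, and passed in neither step (adjusted p = 0.95 and 0.093). Foxp3, the regulatory T cell factor gene, had a first difference of -0.24 (adjusted p = 0.209) and then rose 4.1-fold, from 70.26 and 77.55 to 299.52 and 306.09, while Ifng rose too. Prdm1, which encodes Blimp-1, rose by 1.28 and then fell by 1.18. Bcl6, the follicular helper factor gene, fell by 2.45 and then rose by 0.92 on the brighter of its 2 probe sets.

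Among 16 measured receptors that feed signals to Ifng, 1 rose and 7 fell with B7-2 (median -0.29), beside 11.2% and 13.3% of all genes. With BTNL2, 10 rose and 3 fell (median 0.43), beside 9.52% and 10.8% of all genes. The 7 became 3 without the first anti-CD3 array and 4 without either B7-2 array. Il18r1, the ligand-binding chain of the interleukin 18 receptor, read 51.01 and 56.03, then 57.53 and 71.66, then 467.98 and 278.02, a 5.62-fold rise with BTNL2. Its partner Il18rap rose 5.35-fold, and neither gene passed with B7-2. Il12rb2, the signalling chain of the interleukin 12 receptor, went the other way: 148.54 and 127.69, then 141.01 and 133.22, then 51.53 and 70.63, a 2.27-fold fall with BTNL2 (adjusted p = 0.0023). Ctla4, the inhibitory receptor for B7-2, rose by 0.62 and then fell by 1.65, and Cd28, its activating counterpart, fell by 0.67 and then by 0.75. Tgfbr1, a receptor chain for the TGF-beta present in all wells, fell by 0.69 and then rose by 1.80; with its 3 probe sets averaged these were -0.23 (adjusted p = 0.33) and 0.93, and the fall had an adjusted p of 0.0508 without the first anti-CD3 array.

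**Figure D4:**
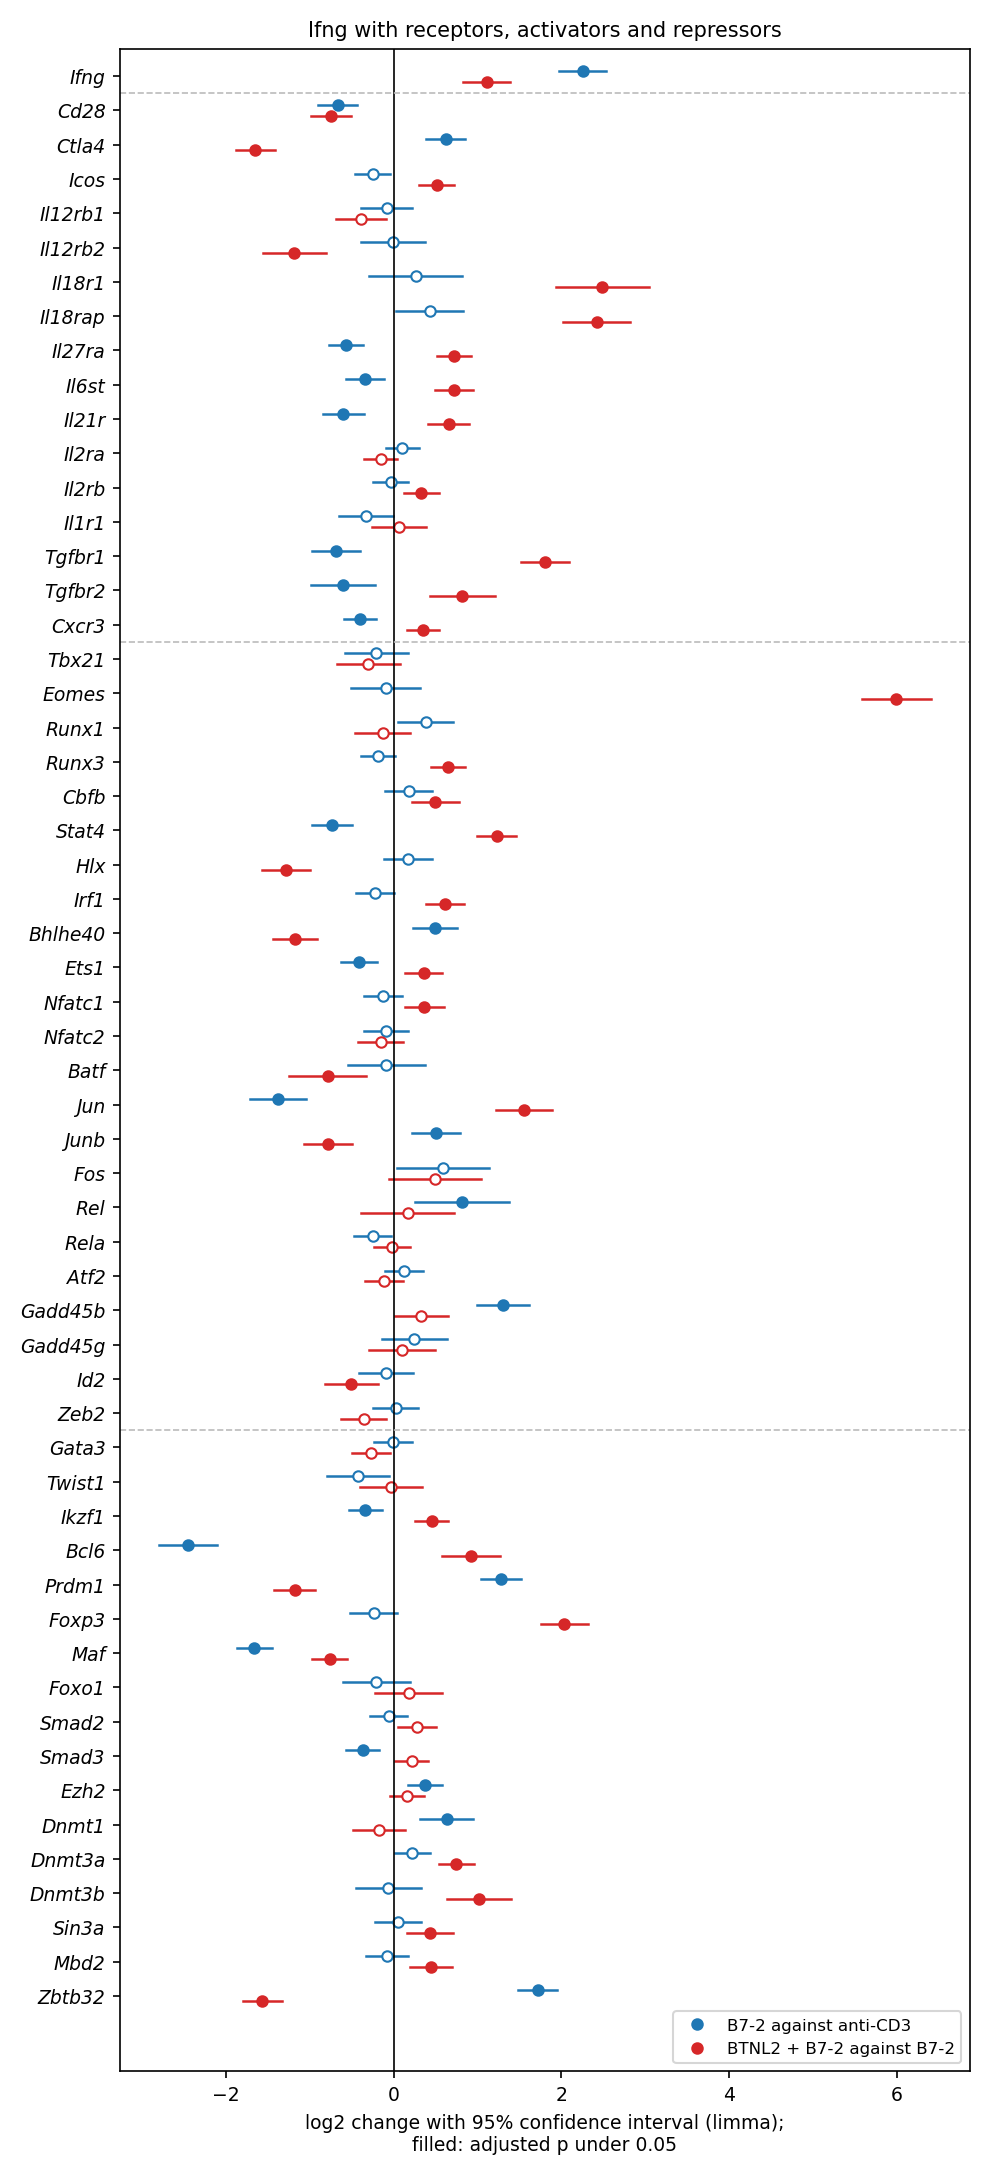
Log2 change with its 95% confidence interval for Ifng and, from top to bottom, the measured receptors, activators and repressors, for B7-2 against anti-CD3 (blue) and BTNL2 with B7-2 against B7-2 (red); filled points passed an adjusted p of 0.05. Eomes lies farthest to the right at 6.00 with BTNL2, and Tbx21 has open points in both comparisons.

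Proteins that bind the Ifng message and set its stability or translation were measured through 8 genes. With B7-2, 1 of the 8 rose and 1 fell, beside 11.2% and 13.3% of all genes. With BTNL2, 0 rose and 1 fell, beside 9.52% and 10.8% of all genes. The shares called, 25% and 12.5%, were near or below the 24.5% and 20.4% of all genes. Elavl1, which encodes the stabilising protein HuR, rose with B7-2 (log2 0.60, adjusted p = 0.0134), but missed the threshold without the second anti-CD3 array (adjusted p = 0.0735) or the second B7-2 array (0.0752). With its 4 probe sets averaged the Elavl1 difference was 0.27 (adjusted p = 0.0957). Zc3h12d, a ribonuclease-family gene, fell by 1.07 with B7-2, and Zfp36l2, whose protein promotes decay of AU-rich messages, fell by 0.39 with BTNL2 (adjusted p = 0.0445), a call lost without any 1 of the B7-2 and BTNL2 arrays (adjusted p from 0.0994 to 0.184).

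Of the neighbours of Ifng on the chromosome, Mdm1 and Il22 were not analysed here. Dyrk2, a kinase gene, read 1127.06 and 1024.9, then 617.8 and 641.34, then 1326.91 and 1166.03, so it fell by 0.77 where Ifng rose and rose by 0.98 with BTNL2. Cand1, a regulator of ubiquitin ligases, had differences of 0.09 (adjusted p = 0.525) and 0.04. Iltifb, a near copy of Il22 whose probe set may also read Il22, was dim at 7.76 to 14.85; it rose with B7-2 like Ifng (log2 0.65, adjusted p = 0.0128) and had a difference of -0.07 with BTNL2 (adjusted p = 0.797).

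Markers of other IFN-γ producing cells also moved with BTNL2, in cells that had been selected for CD4. Cd8a, a chain of the killer T cell coreceptor, read 301.91 and 320.67, then 118.95 and 106.54, then 986.55 and 924.12, a fall of 2.76-fold and a rise of 8.48-fold; a dimmer probe set had a first difference of -0.59. Cd8b1, the other chain, rose 2.48-fold with BTNL2, so both measured CD8 markers fell with B7-2 and rose with BTNL2. Of 10 natural killer cell markers, Eomes included, 1 rose and 2 fell with B7-2, near the 11.2% and 13.3% of all genes, and 4 rose with BTNL2, beside 9.52%. With B7-2 the 1 that rose was Prf1, which encodes perforin, and it was not called without any 1 of the anti-CD3 and B7-2 arrays. Its second probe set fell by 0.94 (adjusted p = 0.0378 with each probe set tested), and the average of both was -0.30 (adjusted p = 0.155), so its direction with B7-2 is not settled. With BTNL2 the brighter Prf1 probe set did not pass (0.07, adjusted p = 0.65, limma). The second rose by 1.80 (adjusted p = 0.00303 with each probe set tested), and the average of both by 0.93 (adjusted p = 0.0029). In the B7-2 comparison 1 natural killer cell marker fell instead of 2 without any 1 array other than the first anti-CD3 array. Their summed intensity was 390.6 to 414.4, then 303.4 to 313.4, then 1605 to 1966, of which Eomes made up most in the BTNL2 wells. Ncr1, the receptor that defines these cells, read 4.75 to 6.62 on all arrays, near the nonspecific control medians of 3.68 to 4.49. The natural killer cell markers Klrd1 and Klrk1 were brighter, with mean intensities of 128.8 and 83.31. With BTNL2 they rose by 2.5023 and 2.384 on the log2 scale (adjusted p = 7.05e-05 and 8.601e-05 with each probe set tested). Their first differences, with B7-2, were -1.904 and -0.5225. With BTNL2, 0 of the 10 markers fell. The 5 measured gamma delta and innate-like T cell markers had 0 higher and 2 lower with B7-2, beside 11.2% and 13.3% of all genes. With BTNL2, 3 were higher, beside 9.52% of all genes. The sums of the 5 were 90.4 to 94.26, 68.39 to 76.14 and 743.8 to 955.4. Most of the sum in the BTNL2 wells was Trgv1, a gamma chain variable segment, at 874.64 and 672.53 after 16.6 and 14.51 with B7-2, and the median log2 change of the 5 with BTNL2 was 0.50. The 2 became 1 without either anti-CD3 array or the second B7-2 array, and the 3 became 1 without the first BTNL2 array. With B7-2 the summed CD8, natural killer and gamma delta markers were lower than with anti-CD3 alone. The part of these cells in the Ifng rise with B7-2 or with BTNL2 was not tested.

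Of 7 B cell markers, 3 fell with B7-2, beside 13.3% of all genes. With BTNL2, 3 of the 7 rose and 1 fell, beside 9.52% and 10.8% of all genes. The sums of the 7 were 860.8 to 913.1, then 531.1 to 550.2, then 740.2 to 962.2. Most B cell markers were thus not dim: Cd79b and Ms4a1 had mean intensities of 200 and 186.4, and 1 of the 7 had a mean under 10 in each group. Of 9 myeloid markers, 0 passed with B7-2 and 2 rose with BTNL2 (Fcer1g and Mpeg1, log2 1.68 and 1.85), beside 9.52% of all genes. The sums of the 9 were 168.3 to 172.6, 135 to 155.9 and 291.3 to 305.8. Their median log2 change with BTNL2 was 0.0021. Lyz2, Itgam, Itgax, Cd14 and S100a8 were dim, with mean intensities of 7.1 to 13.06, and passed in neither step. The 2 became 1 without the first BTNL2 array. No marker was listed at 0 on any array, but even the nonspecific controls had medians of 3.68 to 4.49. A low marker reading therefore cannot show that such cells were present. The part of B cells and myeloid cells in the levels of the response genes was not tested.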

How the data were processed

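The deposited table holds RMA intensity values for 45141 probe sets on 6 arrays; the authors used RMA per the submitters' processing notes, while version, software and probe set definition are not given in the sources read here. The intensities were linear, so log2 was taken. RMA equalises arrays, so a shift common to most genes would be removed. Gene symbols came from the platform annotation, updated through Entrez identifiers: 28898 probe sets had 1 symbol, 551 had several and 15588 had none, and 104 were controls. The brightest probe set on average stood for each of 17097 genes.

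limma 3.58.1 in R 4.3.3 fitted the 3 groups together (lmFit, eBayes), and Benjamini-Hochberg adjustment ran over all genes with a threshold of 0.05. The code was tested on simulated data. False calls were 7.94% for B7-2 against anti-CD3 and 6.25% for BTNL2 with B7-2 against B7-2, both above 5%. In the same order, 75% and 65% of 1.5-fold changes and 99% and 100% of 2-fold changes were recovered. Figures were drawn with matplotlib 3.10.9 in Python 3.11.15.

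Members and lists were chosen with earlier results of these data known. There were 14 lists with 222 entries, 190 measured. Named were Ifng, list members and the 8 genes nearest to it in profile. Alternatives covered the prior, a dim-gene filter, normalization, probe set choice, the log offset, the groups fitted, a replicate block and leaving out each array. No protein sequence was used here.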

Additional observations from a re-analysis of the deposited data

How the results depend on the processing

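Ifng kept its direction and its side of the threshold in the 3 comparisons of groups under 16 alternatives each. Its log2 changes ran from 2.13 to 2.38 for B7-2 against anti-CD3, from 1.01 to 1.21 for BTNL2 with B7-2 against B7-2, and from 3.24 to 3.49 for BTNL2 with B7-2 against anti-CD3; leaving out each array gave these same ranges. The second step minus the first ran from -1.27 to -1.02 over 15 alternatives and passed in 14, with -1.05 (adjusted p = 0.0721) without the first B7-2 array.

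With each probe set tested on its own, 7809, 6222 and 10010 were called in place of 4190, 3482 and 5197 genes. Leaving out each array gave 2454 to 4128, 2142 to 3015 and 3726 to 4870 genes. Prf1, which encodes perforin, turned from 0.33 with B7-2 to -0.30 with all its probe sets averaged.

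Same-numbered arrays did not deviate together (correlations of -0.0641, -0.001 and -0.0272). These correlations cannot tell whether same-numbered cultures shared an animal or a preparation, which the labels do not say. With the replicate number as a block in limma, Ifng gave 2.26 (adjusted p = 0.000345), 1.11 (0.00184) and 3.37 (2.72e-05). The difference of the steps was -1.15 (0.0175), and 3765, 3160 and 4827 genes were called. For single genes over all alternatives, 4394 results kept their call and direction, 155 lost the call and 76 gained it. Another 51 changed direction with no call in either setting, and 1, that of Prf1 with B7-2, changed direction from a called result.

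With 2 arrays per group the number of arrays limits the precision, and dim probe sets such as Il17a, Cxcl9 and Nos2 lie close to the nonspecific signal, where differences are compressed.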
